A study of Mus musculus with 92 samples.

Results

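Livers of young male HET3 mice on a Low Isoleucine diet were compared with livers of young males on the Control diet. HET3 mice are a genetically heterogeneous cross of inbred strains, so animals of a group are not genetically alike. By the labels, 7 libraries are male, killed at 6 months and on Low Isoleucine, and 8 are male, killed at 6 months and on Control, which makes 15 of the 92 libraries of the series. These 15 were chosen by their labels alone. Diets of these animals began at 9 weeks of age, and all animals were fasted for 16 hours before the liver was taken. Time on diet is uncertain, because the series description gives 13 weeks for all animals while the labelled ages imply other spans. Other groups used below are young males on Low Amino Acid (7 libraries), a diet with less of all amino acids, old males killed at 24 months on Low Isoleucine (8) and Control (7), and young females on Low Isoleucine (8) and Control (8). Diets of the other young groups also began at 9 weeks of age, whereas those of the old males began at 6 months.

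Isoleucine is an essential branched-chain amino acid that the liver can sense but not make. A lack of an amino acid leaves transfer RNA uncharged, which activates the kinase GCN2, and ATF4 then turns on genes of amino acid synthesis and transport, among them Asns and the hormone gene Fgf21. Male mouse liver also holds a set of genes kept high or low by the pulses of growth hormone that males secrete, including major urinary proteins and many cytochrome P450 genes.

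All values of young males are the authors' own estimates from the authors' deposited table of male comparisons. It lists 17757 genes, each with a log2 fold change over Control, a p-value and a Benjamini-Hochberg adjusted p. The male columns of the deposited gene table do not line up with its gene rows: for Alb, the albumin gene, its line had a median of 75 estimated counts under them and 1.91e+06 under the female columns. Levels per animal, library depth, spread between animals and levels of cell type markers are therefore not analysed here for males. Standard errors recovered from the deposited p-values would fit a Low Isoleucine group worth 4.2 libraries where the Control group counts as 8, against 7 in the labels, and the Low Amino Acid group came to 6.6. The degrees of freedom recovered from the male table were 36.3, whereas 45 male libraries in 6 groups would leave 39 before any are added. Whether the authors left out libraries, weighted them or fitted further terms is not stated in the labels. Title tags give some animals of a group the same number with another letter, 5 of the 8 Control and 4 of the 7 Low Isoleucine libraries. What the number stands for is not stated, so these libraries may not be independent.

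In young males on Low Isoleucine, 15 of 39 genes of the interferon response and 12 of 31 male-biased liver genes fell, and 7 of 27 female-biased liver genes rose while 1 fell. The fold change of protein-coding genes followed the GC content of their transcripts. At an adjusted p under 0.05, 3747 of the 17757 genes were called in the authors' deposited table, which is 21.1%. Of these, 1661 rose (9.35%) and 2086 fell (11.7%). Most changes were small. The median log2 fold change was 0.54 among genes that rose and -0.72 among genes that fell, and 372 and 543 of them moved by at least 1 on the log2 scale in the authors' deposited table. Over all genes the median was 0.04, with quartiles at -0.28 and 0.31.

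**Figure D1:**
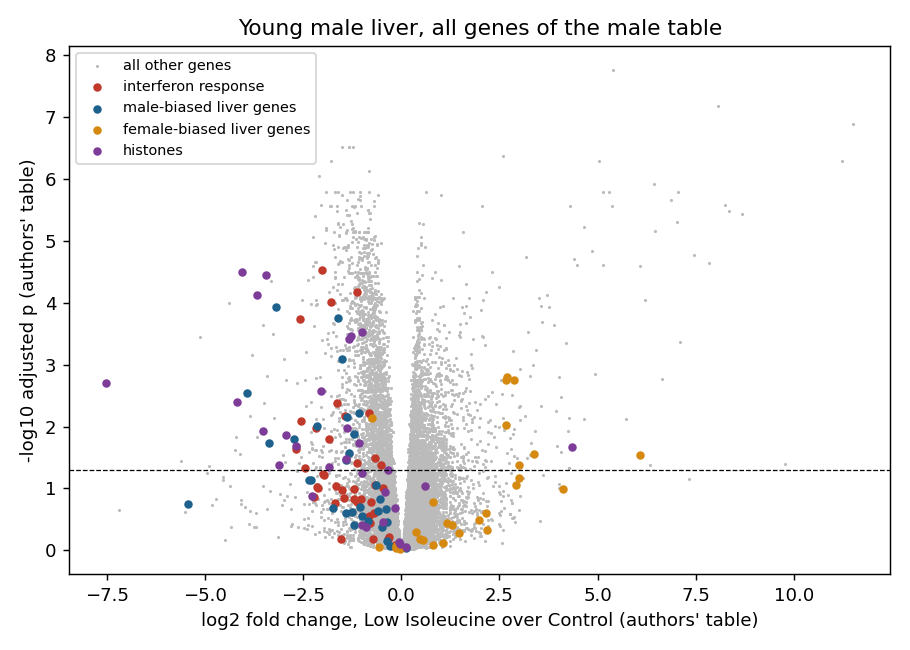
Each point is a gene of the male table, with the authors' deposited log2 fold change of Low Isoleucine over Control on the x axis and -log10 of the deposited adjusted p on the y axis; the dashed line marks an adjusted p of 0.05. All 39 interferon response genes (red) lie left of 0, and 7 female-biased genes (orange) lie above the line on the right.

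Transcript GC content tracked the fold change across protein-coding genes. Over 13656 protein-coding genes, the Spearman correlation between GC content of the transcript and the deposited log2 fold change was -0.59 across genes, which are not independent replicates. In the tenth of genes with the lowest GC content (31.9% to 41.5%) the median log2 fold change was 0.22, with 288 genes called higher and only 9 called lower there. In the tenth with the highest GC content (58.0% to 72.9%) the median was -0.71, with 0 called higher and 776 lower. Protein-coding genes that rose had a median GC content of 44.3% and those that fell 57.1%, against 49.9% for all. The same correlation was -0.15 for Low Isoleucine in old males and 0.03 in young females. For young males on Low Amino Acid, which share their Control libraries with Low Isoleucine, it was -0.61. In the comparison of old with young males it was -0.41 on Control and 0.23 on Low Isoleucine. What sets this gradient was not tested.

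**Figure D2:**
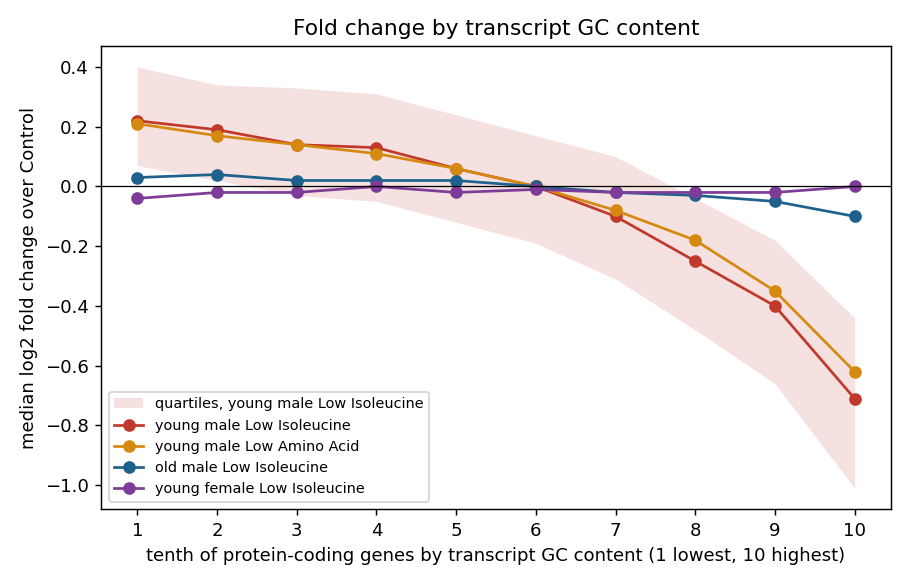
The x axis gives deciles of the protein-coding genes by transcript GC content and the y axis the median deposited log2 fold change over Control in each of 4 comparisons; the band holds the quartiles of young male Low Isoleucine. Medians of young male Low Isoleucine go from 0.22 to -0.71, and those of old males from 0.03 to -0.10.

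Because of this gradient, most lists of protein-coding genes below are given as deposited and again less the GC trend. That is the fold change minus its running median over protein-coding genes ordered by GC content, in windows of 501 genes. Noncoding RNAs were not adjusted. List values for the other diet, age and sex are as deposited. Of 13656 protein-coding genes, 3082 were called as deposited (22.6%), and 35.5% of these were higher. After removal of the trend 860 were called (6.30%), 438 higher (3.21%) and 422 lower (3.09%), so 50.9% were higher. Both ways and in the same direction, 604 genes were called, or 19.6% of the calls as deposited. List counts below stand beside 9.35% higher and 11.7% lower over all genes as deposited, and beside 3.21% and 3.09% less the trend. Protein-coding genes described in the paragraphs below that were called as deposited and not less the trend are Isg15, Ifit1, Tap2, Stat2, Cyp2b9, Gas6, Stat5b, Prlr, Vldlr, Cth, Shmt2, Bckdhb, Bhmt, Cps1, Arg1, Srebf1, Apoa4, Apoe, Hmgcs1, Nags, Gpt, ND5, CYTB, Ppargc1a, Esrra, Polrmt, Rbm3, Clk1, Mdm2, Bbc3, Bax, Per2, Col1a1, Col3a1 and Rnf187.

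Most larger classes of transcripts other than protein-coding genes had positive medians. The GC trend was not removed from these classes. Of 1115 genes annotated TEC, which are unconfirmed loci that await experimental evidence, the authors' deposited table called 253 higher and 3 lower, with a median log2 fold change of 0.44. Sense-intronic transcripts, which lie within introns of other genes, had 42 of 135 higher and 0 lower, with a median of 0.46. Long intergenic RNAs had 68 of 563 higher and 10 lower, and antisense RNAs 69 of 704 higher and 13 lower. Processed transcripts had 19 of 263 higher and 5 lower. Over all genes the shares were 9.35% higher and 11.7% lower. The share of antisense RNAs called higher was thus near that of all genes, and that of processed transcripts was below it. In old males the medians of the TEC and sense-intronic classes were -0.01 and 0.00, and in young females 0.12 and 0.13. Of 47 small nucleolar RNAs 7 were lower, not far from the 11.7% of all genes, and 0 higher in the authors' deposited table. Their median was -0.41, beside 0.16 in old males and -0.75 in young females.

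**Figure D3:**
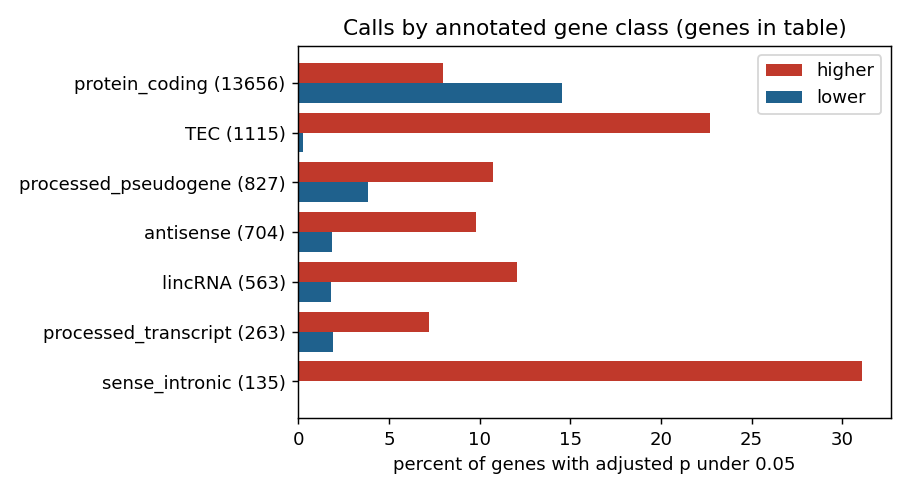
Bars give the percentage of genes of each annotated class (number of genes in parentheses) with a deposited adjusted p under 0.05 that were higher (red) or lower (blue) on Low Isoleucine in young males. TEC and sense-intronic classes have bars almost only on the higher side.

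Interferon response genes had negative values throughout. All 39 members of the list had negative log2 fold changes in the authors' deposited table, and 15 of them fell, against 11.7% of all genes. Their median was -1.43 as deposited, and -1.42 less the GC trend, with 9 of 37 protein-coding members lower. Irf7 (chromosome 7, 141262706 to 141266481, GRCm38), the transcription factor that amplifies type I interferon production, fell by 2.58 in the authors' deposited table (adjusted p = 0.00018). In the authors' deposited table Isg15, a ubiquitin-like modifier, was at -2.68, Oas1a, a sensor of double-stranded RNA, at -2.55, and Ifit1, which binds foreign RNA, at -2.46. Ifi27 was at -2.01 and Bst2, which tethers virions to the cell surface, at -1.79, and all 5 passed. Members that did not pass included Mx1 at -1.46 (adjusted p = 0.14) by the authors' deposited table. Antigen presentation genes were also all negative, 22 of 22, and 5 of them fell, among them Psmb10, an immunoproteasome subunit, at -1.5 and Tap2, a peptide transporter, at -1.43. With the trend removed 2 of these 22 were called.

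The promoters of these genes are shown because an interferon-stimulated response element, a site bound by interferon-activated transcription factors, is the sequence the family is known for. The motif searched was GAAA, any 2 bases, then GAAA, on both strands, in the 250 bases before and 50 after each gene's start in RefSeq (GRCm38.p6). It stood in 16 of the 25 list genes with an entry (64.0%), in 6 of the 10 called ones (60%), and in 3.99% of all 27025 genes with an entry. Capitals mark the motif, and overlapping matches run together. Among the called genes with a match, Ifih1 holds it after the start and is not shown. Each window begins 20 bases before the first match and runs for 60 bases, or to the start site where that comes sooner (Oas1a), and is given 5′ to 3′ on the strand of its gene.
Isg15, chr4:156200857-156200916, minus strand: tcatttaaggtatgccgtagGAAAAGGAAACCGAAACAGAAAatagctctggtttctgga
Ifit1, chr19:34640765-34640824, plus strand: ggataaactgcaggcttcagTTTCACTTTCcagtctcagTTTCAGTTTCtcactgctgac
Oas1a, chr5:120907526-120907565, minus strand: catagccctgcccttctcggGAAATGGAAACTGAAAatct
Bst2, chr8:71537563-71537622, minus strand: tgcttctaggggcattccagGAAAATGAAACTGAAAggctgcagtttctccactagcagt
Stat2, chr10:128270256-128270315, plus strand: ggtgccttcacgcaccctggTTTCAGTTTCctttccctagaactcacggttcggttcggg
The first match lies 78 bases before the start in Isg15, 104 in Ifit1, 20 in Oas1a, 130 in Bst2 and 222 in Stat2. Of these genes Stat2 fell least, by 0.51 in the authors' deposited table. A match is only a description of the letters.

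Genes that differ between male and female liver changed in part. Of 31 male-biased genes 30 had negative values in the authors' deposited table and 12 fell, with a median of -1.25 (-1.31 less the GC trend, 9 of 30 lower). Mup20 (chromosome 4, 62050234 to 62054158), a major urinary protein that acts as a male pheromone, fell by 3.93 in the authors' deposited table (adjusted p = 0.0029). Cyp4a12b, a fatty acid hydroxylase, fell by 3.19, and Cyp7b1, an oxysterol hydroxylase, fell by 1.20. Gstp1, a glutathione transferase, and C6, a complement component, stood at -1.62 and -1.5 and passed in the authors' deposited table. Mup1 stood at -0.37 (adjusted p = 0.72) and Hsd3b5 at -1.75 (adjusted p = 0.21) and did not pass. Mup genes, Cyp4a12a with Cyp4a12b and C4a have near-identical copies, so reads may be split between them and their values are uncertain.

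Among 27 female-biased genes the authors' deposited table called 7 higher and 1 lower, against 9.35% and 11.7% of all genes. Their median was 1.48, and 1.57 less the GC trend, with 4 called higher. Cyp2b9, a P450 that is near silent in male liver, stood at 6.09 in the authors' deposited table (adjusted p = 0.029, and 0.068 less the GC trend). Cyp39a1, an oxysterol hydroxylase, rose by 2.88, Cyp17a1, a steroid hydroxylase, by 2.69 and Atp6v0d2, a proton pump subunit, by 2.66 in the authors' deposited table. Gas6, a ligand of TAM receptors, was the member that fell, by 0.75. Among regulators of the sex difference, Bcl6, a repressor of female genes in male liver, stood at 0.11 (adjusted p = 0.92). Cux2 stood at 1.29 (adjusted p = 0.39), and neither passed in the authors' deposited table.

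In the growth hormone axis the authors' deposited table called 1 of 20 genes higher and 4 lower, against 9.35% and 11.7% of all genes, and less the GC trend 1 was higher and 1 lower. Igfals (chromosome 17, 24865997 to 24882010), which holds IGF1 in its circulating complex, fell by 1.78, and stood at -1.15 less the GC trend. Stat5b, which relays the growth hormone signal, fell by 0.38 (adjusted p = 0.049), and Prlr, the prolactin receptor, rose by 1.12 in the authors' deposited table. Ghr at -0.28 (adjusted p = 0.42) and Igf1 at 0.09 (adjusted p = 0.77) did not pass.

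Targets of the integrated stress response did not move as a group. The authors' deposited table called 3 of 32 genes higher and 3 lower, against 9.35% and 11.7% of all genes. The median of the 32 was -0.07. Slc7a11 (chromosome 3, 49892526 to 50443614), the cystine and glutamate exchanger, rose by 4.19 (adjusted p = 0.00045), and by 3.99 less the GC trend. Slc7a11 is absent from the female comparisons and stood at -0.35 in old males. Its level in males could not be read and may be low. Vldlr rose by 1.93 and Cth, the enzyme that makes cysteine from cystathionine, by 0.74, while Shmt2, mitochondrial serine hydroxymethyltransferase, fell by 0.92 in the authors' deposited table. Asns stood at 0.90 (adjusted p = 0.55), Atf4 at -0.01 (adjusted p = 0.98), Gdf15 at -1.36 (adjusted p = 0.13) and Fgf21 at -1.09 (adjusted p = 0.43) by the authors' deposited table. None of the 7 genes of the FGF21 axis was called. With the trend removed 1 stress response gene was higher and 1 lower, against 3.21% and 3.09% of protein-coding genes.

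Among enzymes that break down branched-chain amino acids, the authors' deposited table called 1 of 24 higher and 2 lower. Over all genes it called 9.35% higher and 11.7% lower. Bckdha (chromosome 7, 25629946 to 25658981), the E1 alpha subunit of the branched-chain ketoacid dehydrogenase, fell by 1.41, and stood at -0.85 less the GC trend. Its partner Bckdhb rose by 0.31 (adjusted p = 0.045), while the kinase Bckdk at -0.27 and the transaminase Bcat2 at -0.13 did not pass in the authors' deposited table. Hepatic enzymes of amino acid catabolism had 5 of 38 higher and 5 lower as deposited, and 2 higher and 0 lower less the GC trend. Gldc, of the glycine cleavage system, rose by 1.13 and Cdo1, which oxidizes cysteine, by 0.75 in the authors' deposited table, and both were called less the GC trend. Bhmt, which remethylates homocysteine, rose by 1.06 and was not called less the trend (adjusted p = 0.056). Of 17 genes of the urea cycle and ammonia handling 2 rose and 2 fell, and less the GC trend 1 was higher and 0 lower. Cps1 rose by 0.82 and Arg1 by 0.81, while Nags fell by 0.64 and Gpt by 0.42 in the authors' deposited table. Less the GC trend Nags was at 0.14 and Gpt at 0.13.

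Lipid genes changed in part, in both directions. Srebf1 (chromosome 11, 60199089 to 60222581), the transcription factor of fatty acid synthesis, fell by 1.57 in the authors' deposited table (adjusted p = 0.00058), and its value less the GC trend was -0.96 (adjusted p = 0.069). In the fatty acid synthesis list 5 of 28 genes fell and 1 rose, against 11.7% and 9.35% of all genes. Acaca, acetyl-CoA carboxylase, was the member that rose, by 0.47, while Fasn stood at -0.26 (adjusted p = 0.59) by the authors' deposited table. None of the 28 was lower once the trend was taken off. Apolipoprotein and lipoprotein genes had 7 of 24 lower as deposited, against 11.7% of all genes, and 1 lower less the GC trend. Among the 7 were Apoa4 at -1.25 and Apoe at -0.90 in the authors' deposited table. The cholesterol list had 18 of 25 positive values and a median of 0.30 as deposited, with 1 gene called higher and 1 lower. Less the GC trend its median was 0.35, with 1 higher and 0 lower. Hmgcs1, of cholesterol synthesis, was the member that rose as deposited, by 0.99, and was not called less the trend. In glucose metabolism Gys2, liver glycogen synthase, fell by 1.19 and Fbp1, a gluconeogenic phosphatase, fell by 0.80 in the authors' deposited table, and both were called less the GC trend. Pck1 at -0.33 did not pass.

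Oxidative phosphorylation draws on subunits encoded in the nucleus and in the mitochondrial genome. The authors' deposited table called 23 of 75 nuclear subunit genes lower and 0 higher, and 12 were lower less the GC trend. Uqcrq (chromosome 11, 53427922 to 53430831), a complex III subunit, fell by 2.10, and stood at -2.13 less the GC trend. Uqcr11 fell by 1.63 and Ndufa2, of complex I, fell by 1.09 in the authors' deposited table. Of 13 proteins encoded by the mitochondrial genome 9 rose and 1 fell, with ND5 at 1.05 and CYTB at 0.75, while ND3 fell by 0.78 in the authors' deposited table. Transcripts of the mitochondrial genome have a low GC content, a median of 37.1%, and none of the 13 was higher less the GC trend. Cytosolic ribosomal proteins had 11 of 79 higher and 30 lower, with Rplp1, a stalk protein, at -2.25 in the authors' deposited table. With the trend removed 3 were higher and 14 lower. In the list of PGC1 coactivators and mitochondrial biogenesis 1 of 15 genes rose and 5 fell, among them Esrra, a nuclear receptor that PGC1 coactivates, at -1.69 and Polrmt, the mitochondrial RNA polymerase, at -1.15 in the authors' deposited table. None of the 15 was called less the GC trend, whereas by another choice of transcript for GC content 3 were lower. Ppargc1a, a coactivator of mitochondrial genes, was the member that rose, at 1.26 as the authors deposited it (adjusted p = 0.008), and at 1.07 less the GC trend (adjusted p = 0.057).

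**Figure D4:**
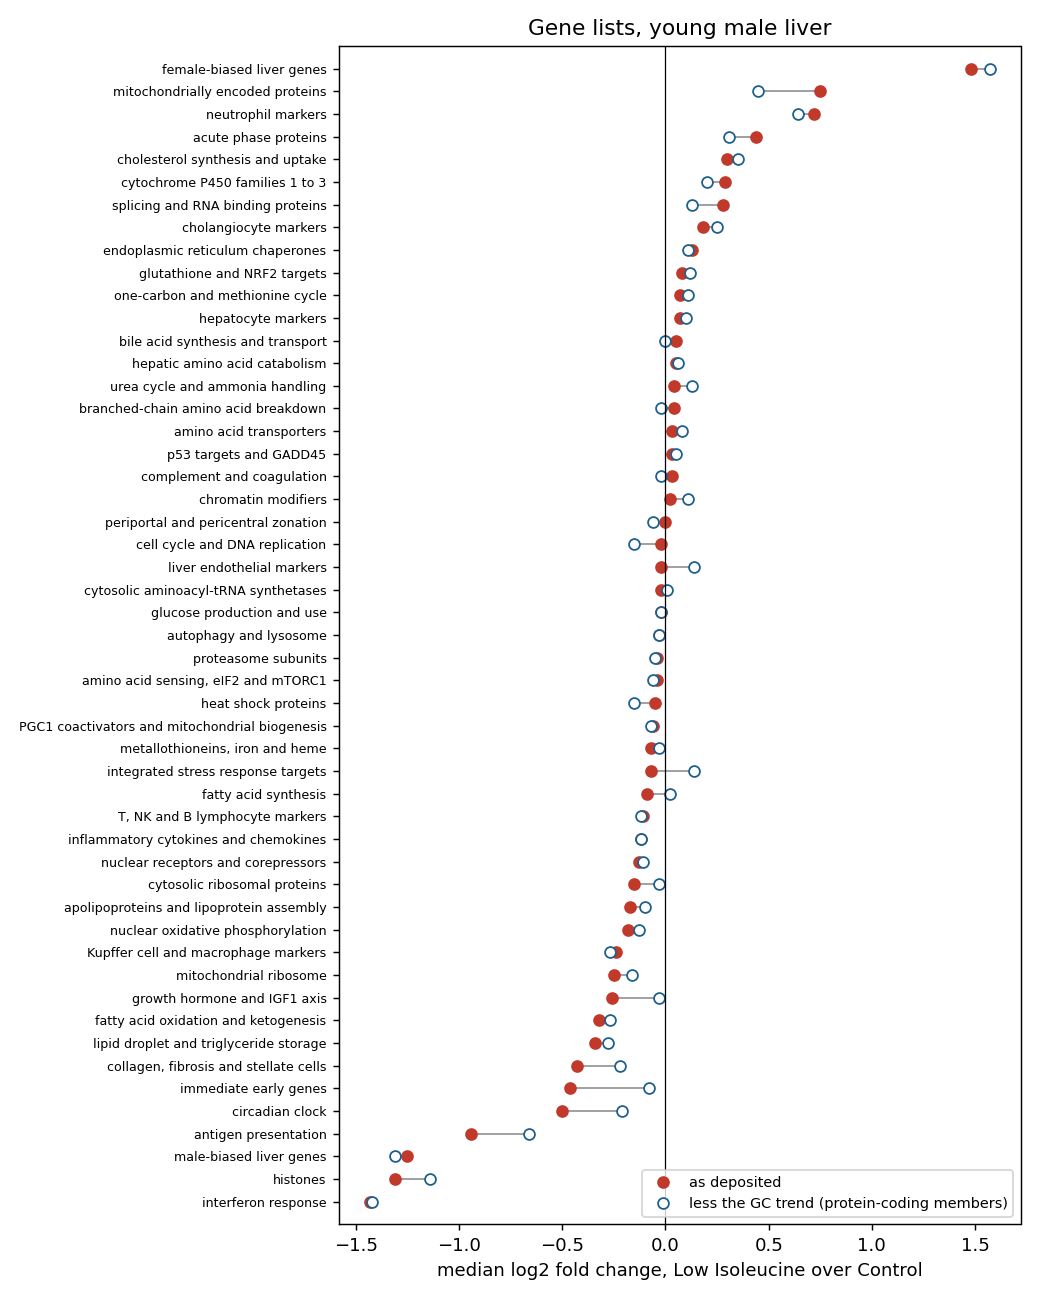
Each row is a gene list with at least 10 protein-coding members in the table, the x axis its median log2 fold change on Low Isoleucine over Control in young males; filled points are as deposited and open points less the GC trend. Interferon response, male-biased and female-biased lists keep medians of -1.42, -1.31 and 1.57, while circadian clock genes go from -0.50 to -0.21.

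Histone genes were among the largest falls. The authors' deposited table called 17 of 30 measured histone genes lower and 1 higher, with a median of -1.31, and 12 were lower less the GC trend. H4c4 was at -4.05, H4c3 at -3.67 and H2ac19 at -7.51 in the authors' deposited table. Histone genes that are expressed while DNA is replicated make transcripts without a poly(A) tail, and the libraries were prepared by poly(A) selection. Many are near-identical copies, so their values are uncertain. Other RNAs without a usual tail were lower too, 10 of 22 with 0 higher: Rpph1, the RNA of RNase P, was at -4.38 and Rmrp at -2.20 in the authors' deposited table. The part of library preparation in these values was not tested. None of 30 genes of the cell cycle and DNA replication was called.

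Splicing and RNA-binding proteins rose in part. The authors' deposited table called 19 of 33 splicing and RNA-binding proteins higher and 0 lower, with a median of 0.28. Rbm3, a cold-inducible RNA-binding protein, rose by 0.69 and Clk1, a kinase of splicing factors, by 0.46. With the trend removed 3 were called, and by another choice of transcript for GC content 1. Cdkn1a (chromosome 17, 29090976 to 29100727), the cell cycle inhibitor p21, rose by 3.31 in the authors' deposited table (adjusted p = 0.018), and so did its fellow p53 targets Polk, by 0.48, and Mdm2, by 0.31. The same list of 24 had 3 called lower, among them Bbc3 at -1.74 and Bax at -0.59. Less the GC trend 2 of the 24 were higher and 0 lower, and Bax was at 0.07. Of 20 clock genes 1 rose and 4 fell, against 9.35% and 11.7% of all genes, and less the GC trend 1 was higher and 0 lower. Clock rose by 0.88 and Per2 fell by 1.27. The clock list had a median of -0.50, beside -0.49 in young females. Of 19 immediate early genes 0 rose and 3 fell, among them Junb at -2.98 in the authors' deposited table. Less the GC trend 1 of the 19 was lower.

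Markers of other liver cells were measured as changes only. Of Kupffer cell and macrophage markers 0 of 26 were called in the authors' deposited table, of lymphocyte markers 0 of 23, of neutrophil markers 0 of 11 and of cholangiocyte markers 0 of 12. Their medians were -0.24, -0.11, 0.72 and 0.18. Collagen and stellate cell genes had 11 of 33 lower, with Col1a1 at -1.70 and Col3a1 at -1.07 in the authors' deposited table, and 1 lower less the GC trend. Endothelial markers had 3 of 26 higher and 5 lower, and 1 higher less the trend. Of 20 hepatocyte markers 1 rose and 4 fell, and less the trend 0 were higher and 1 lower. Fewer cells of a type and less RNA per cell cannot be told apart in whole liver.

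Genes with the strongest evidence were of mixed kinds. Acnat2 (chromosome 4, 49379840 to 49408151), an acyltransferase of the peroxisome, rose by 2.60 (adjusted p = 4.31e-07). Tst, a mitochondrial sulfurtransferase, was at -1.24, Ftl1, the ferritin light chain, at -1.5 and Polr2l, a subunit of RNA polymerases, at -1.33, each with adjusted p = 3.05e-07 in the authors' deposited table. Each of these 4 was called less the GC trend, whereas Rnf187, at -0.83 as deposited, was at 0.01. Genes usually expressed outside liver were among the largest rises: Epha5, an ephrin receptor, rose by 4.39 and Dpp10, a potassium channel partner, by 4.31. Ubtfl1 at 6.20 and Duxf3 at 5.13 in the authors' deposited table have near-identical copies in the genome, so their values are uncertain. Epha5, Dpp10, Ubtfl1 and Duxf3 are all absent from the female comparisons. In old males they stood at 0.11, 0.02, -0.37 and 0.11. Their levels in males could not be read and may be low.

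Young males on Low Amino Acid share their Control libraries with Low Isoleucine, so values are set side by side with no test. The authors' deposited table called 948 genes higher (5.34%) and 1954 lower (11%) on that diet. The interferon list had a median of -0.56 with 5 lower, the male-biased list -0.87 with 6 lower, the female-biased list 0.99 with 5 higher, and histones -1.23 with 18 lower. Srebf1 stood at -0.15 there (adjusted p = 0.78), against -1.57 on Low Isoleucine, and Ppargc1a at 1.29, against 1.26, in the authors' deposited table.

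Did old males respond alike? On Low Isoleucine 12 of 17757 genes were called in old males (0.0676%), 7 higher (0.0394%) and 5 lower (0.0282%), by the authors' deposited table. The difference between the effects at both ages was tested from recovered standard errors (36.3 degrees of freedom), with Benjamini-Hochberg adjustment over all genes. It passed for 1591 genes (8.96%): the young effect was the higher one for 519 (2.92%) and the lower one for 1072 (6.04%). With the trend removed it passed for 140 protein-coding genes (1.03%), 63 with the young effect higher (0.461%) and 77 with it lower (0.564%). Acnat2 differed by 2.75, from 2.60 in young to -0.15 in old males, and Uqcrq by -2.02, from -2.10 to -0.08. Of the interferon list 3 of 39 differed, of the male-biased list 5 of 31, of the female-biased list 1 of 27 and of histones 8 of 30. Age at killing cannot be told apart from age at diet start or time on diet.

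In young females 16 of 17192 genes were called on Low Isoleucine (0.0931%), 7 higher (0.0407%) and 9 lower (0.0523%), by the authors' deposited table. The difference between young males and young females passed for 1184 of 17023 genes (6.96%), 235 with the male effect higher (1.38%) and 949 with it lower (5.57%). With the trend removed it passed for 94 of 13326 protein-coding genes (0.705%), 44 with the male effect higher (0.33%) and 50 with it lower (0.375%). Of the interferon list 8 of 39 differed, among them Irf7 at -2.58 in males and -0.14 in females (adjusted p of the difference = 0.004). Of the female-biased list 3 of 27 differed, with Atp6v0d2 at 2.66 in males and -0.86 in females. Srebf1 was at -1.57 in males and -1.15 in females, and their difference did not pass (adjusted p = 0.63). The tables of each sex were fitted apart.

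**Figure D5:**
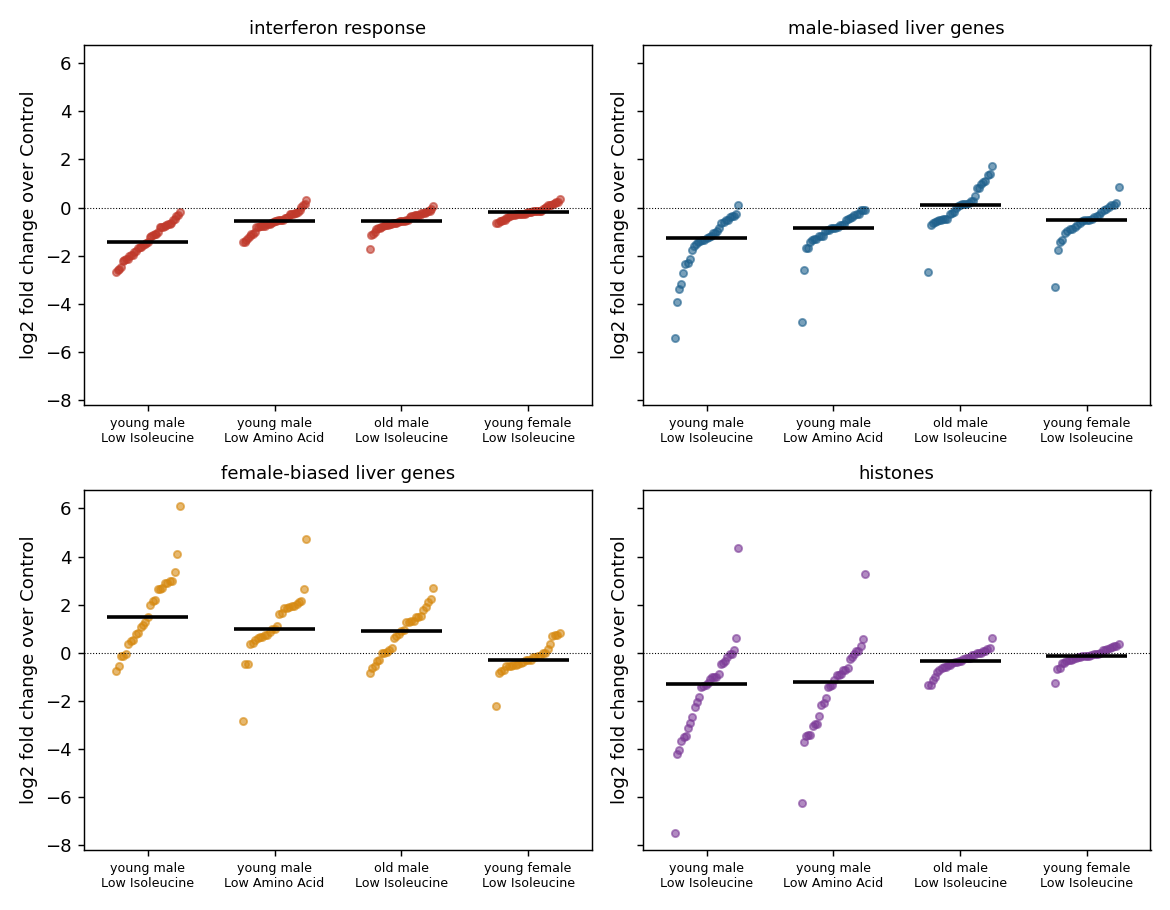
Points are the members of 4 gene lists, ordered by value within each comparison, on a y axis of deposited log2 fold change over Control; black bars are medians. Interferon medians are -1.43, -0.56, -0.57 and -0.20 from left to right, and female-biased medians 1.48, 0.99, 0.92 and -0.29.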

How the data were processed

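Liver RNA was sequenced from stranded, poly(A)-selected libraries, with lanes merged per sample, per the labels' protocols. Per the submitters' processing notes edgeR, limma, R 3.4.3 and GRCm38.p5 were used, with no roles. No aligner is named (not given in the sources used here). The authors deposited, per gene and comparison, a log2 fold change with its p-value, raw and Benjamini-Hochberg adjusted. They also deposited an F statistic, a score that covers all comparisons, and a table of estimated counts. The authors' deposited estimated counts have 51912 lines, 17275 of them filled in every column. Fold changes computed from them correlated across genes with the deposited ones at r = 0.877 in young females and 0.00463 in young males, so male counts were not used. Of the columns 0 were of samples outside the labels.

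Sums of deposited male columns matched, so these columns share a direction, but the sums cannot show which. In young females, Low Isoleucine over Control computed from counts correlated positively with the deposited values (r = 0.877). Male columns have headers of the same form and were read alike, as restricted diet over Control. Their direction could not be checked on male counts. Degrees of freedom were recovered from F and its p-value (36.3 in males, 39.6 in females), and standard errors from fold changes and p-values (median 0.212). Differences between comparisons without shared libraries were tested as t statistics. Annotation, exon length and GC content came from GENCODE M21, where 58 genes had no match, and promoters from RefSeq. Python 3.11.15, numpy 2.4.6, pandas 2.3.3 and scipy 1.17.1 were used.

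The GC trend was added after the data were seen. GC content was first taken from the longest transcript of any kind and then, after results had been seen under both, from the longest in the basic set. The running median was at first held flat at both ends, where simulated data gave false calls among genes of extreme GC content. A Theil-Sen line through the last full window replaced it. On simulated data with a straight-line trend, false calls were then as frequent as with the true trend known. The share of false calls was still slightly above the nominal level in both. The trend in these data is not straight: medians were 0.22 and 0.19 in the lowest GC deciles, and -0.40 and -0.71 in the highest. The simulation therefore cannot show how the line does for genes of extreme GC content here.

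Named genes were a fixed set of 18, the 15 largest called changes and 10 smallest p-values in each direction, up to 8 called members per list, and the 10 smallest p-values in each direction of each difference. The 55 lists hold 1430 genes of the table. Members and lists were chosen with earlier results of these data known. A few named genes are not reported here.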

Additional observations from a re-analysis of the deposited data

Results flagged for a closer look

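The Low Isoleucine effect differed between young and old males for the genes with the smallest p-values of that difference (t statistic from recovered standard errors, Benjamini-Hochberg over all genes). Written as the young minus the old log2 fold change, the young effect was the higher one for Acnat2 2.75, Prkdc 0.81, Rnpc3 0.60, Polk 0.66, Clk1 0.60, Vps13b 0.38, Adam23 1.57, Ash1l 0.41, Zfp644 0.43. It was the lower one for Rnaseh2c -1.91, Atp9a -1.30, Ftl1 -1.48, Grcc10 -1.52, Gemin7 -1.11, Uqcrq -2.02, Fcgrt -1.32, Ndufa7 -1.06, Vars2 -1.36.

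It also differed between young males and young females. Written as the male minus the female log2 fold change, the male effect was the higher one for Acnat2 2.40, Rnpc3 0.64, Atp6v0d2 3.52, Pcsk5 0.72, Ttpa 0.90, Fbxl5 0.58, Nt5e 1.84, Prlr 1.34, Ces1b 1.63, Rundc3b 2.54. It was the lower one for Polr2l -1.49, Bola1 -2.30, Mrpl43 -1, Akt1s1 -1.47, Thap7 -1.71, Tmem259 -1.10, Card19 -1.39, Ftl1 -1.41, Atp9a -1.14, Jund -1.89. Of the genes of both differences, those called in young males as deposited and not less the GC trend were Prlr, Akt1s1, Tmem259, Clk1, Vps13b, Card19, Fbxl5, Rundc3b, Gemin7, Jund and Ttpa. By age, the difference itself did not pass less the GC trend for Rnpc3, Clk1, Vps13b, Ash1l, Zfp644, Gemin7 and Vars2. By sex, the difference did not pass less the trend for Rnpc3, Ttpa, Fbxl5, Prlr, Akt1s1, Thap7, Tmem259, Card19, Ftl1, Atp9a and Jund. Genes of the lower side lie mostly at high transcript GC content, and less the GC trend far fewer differences passed. The part of that gradient in these values was not tested.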

How the results depend on the processing

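Of 1661 genes higher and 2086 lower, 706 and 1351 were called at an adjusted p under 0.01, 509 and 1109 with Benjamini-Yekutieli adjustment, and 372 and 543 with an absolute log2 fold change of at least 1. Less the GC trend, added after seeing the data, 438 and 422 protein-coding genes were called, and 464 and 511 with GC content from the longest transcript of any kind. Over all list genes 48 rose and 171 fell at 0.01, 31 and 143 with Benjamini-Yekutieli, 42 and 83 less the GC trend, and 48 and 95 with the other transcript. At an adjusted p under 0.10, 1004 genes had a higher and 1660 a lower effect in young than old males, and 501 a higher effect in young males than females. Less the GC trend these differences were 63 higher and 77 lower by age, and 44 higher and 50 lower by sex. Called named genes that changed sign less the GC trend were Rnf187 0.01, Slc25a1 0.04, Nr1h3 0.06, Scap 0.01, Fau 0.03, Sesn2 0.02, Vars 0.14, Farsa 0.1, Aars 0.09, Nags 0.14, Gpt 0.13, Keap1 0.03, Bax 0.07, Col18a1 0.04, Cebpa 0.31, Rxrb 0.03, Kmt2d 0.02, Mrpl54 0.14 and, among those named for a difference by age or sex, Tmem259 0.17. Of 288 named genes with a value less that trend, 155 kept their direction and lost the call. Taking off the exon length trend or the median over all genes changed no direction among the 301 named genes, and Benjamini-Yekutieli ended 123 calls. No paired analysis was possible because young male Control and Low Isoleucine libraries share 0 of the numbers in their title tags, and the results come from deposited comparisons. Leaving out each library was not run, since male counts could not be read by gene. Depth of the male libraries is unknown.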
